A study of Oryza sativa with 3 samples.

Results

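Anti-Flag ChIP-seq of rice seedlings gave long runs of enriched regions packed close together at a few places in the genome, and these dense chains are described here. The members were selected on their positions alone. The regions listed for the 3 samples were pooled, those overlapping by at least 1 bp were merged, and merged regions at most 20000 bp apart on 1 chromosome were joined into chains. Merged regions in chains of 10 or more are the members. There were 262 members in 10 chains, out of 853 merged regions in 442 chains, where a lone region counts as a chain of 1. Because the positions in all 3 lists chose the members, their density, number and lengths are given as a description without a test.

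All 3 samples came from rice of the WYJ7-dep1-1 background carrying p35S::Flag-ngr2, harvested as seedlings at 2 weeks. The dep1-1 allele and the transgene were thus common to every library, and no untagged plant or input library was analysed here. The samples form 1 group and are numbered 1 to 3 in record order. The title of replicate 3 does not carry the word Flag that the others have, so several counts, shares and boundary values are also given without it. Nothing in the labels says that the samples came from separate plants, so p-values and SDs over them would measure a spread that may be technical only. The 35S promoter drives strong expression in most plant tissues, so the tagged protein need not follow the natural pattern of the gene.

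The ngr2 allele is known to belong to the rice gene GRF4, which encodes a growth-regulating factor. Such plant transcription factors bind DNA through a WRC domain and pair with GIF co-activators through a QLQ domain, and a conserved microRNA restrains their transcripts. In rice, GRF4 is known for promoting nitrogen and carbon metabolism genes, and the DELLA protein SLR1 counteracts it. DEP1, the gene altered in dep1-1, encodes a gamma subunit of a heterotrimeric G protein. A peak caller such as MACS marks stretches where reads of the precipitated DNA pile up, and a binding site of a transcription factor usually gives 1 short stretch. A chain of many stretches therefore has an inner layout of its own, described here by length, gap, spacing and score.

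The lists held 440, 620 and 439 regions in replicates 1, 2 and 3. Dense chains took 179 regions (40.7%) of replicate 1, 239 (38.5%) of replicate 2 and 175 (39.9%) of replicate 3. The 10 chains spanned 414 kb, which is 0.114% of 363 Mb, the sum over chromosomes of the largest region end listed. The chains are named here by chromosome and order. Positions are 1-based in the coordinates of the lists, and no source used here gives their genome build, so neither genes nor sequences were assigned. On chromosome 1, chain 1A ran from 24535507 to 24545264, chain 1B from 33516208 to 33553435 and chain 1C from 39111501 to 39128762. Chain 3A ran from 25043037 to 25051111 on chromosome 3 and chain 9A from 4678563 to 4732505 on chromosome 9. On chromosome 12, chain 12A ran from 8530011 to 8557290, chain 12B from 13342310 to 13419264, chain 12C from 20460672 to 20577548, chain 12D from 20610555 to 20668751 and chain 12E from 26307504 to 26315525. These 5 held 178 of the 262 members.

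The limits of 10 regions and 20000 bp fell in empty ranges. The smallest dense chain had 12 members, and the largest chain left out had 8. The widest gap joined inside a dense chain was 16823 bp. The nearest gap that was not joined, 28957 bp, lay after chain 1B, and the next, 33006 bp, separated 12C from 12D.

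**Figure D1:**
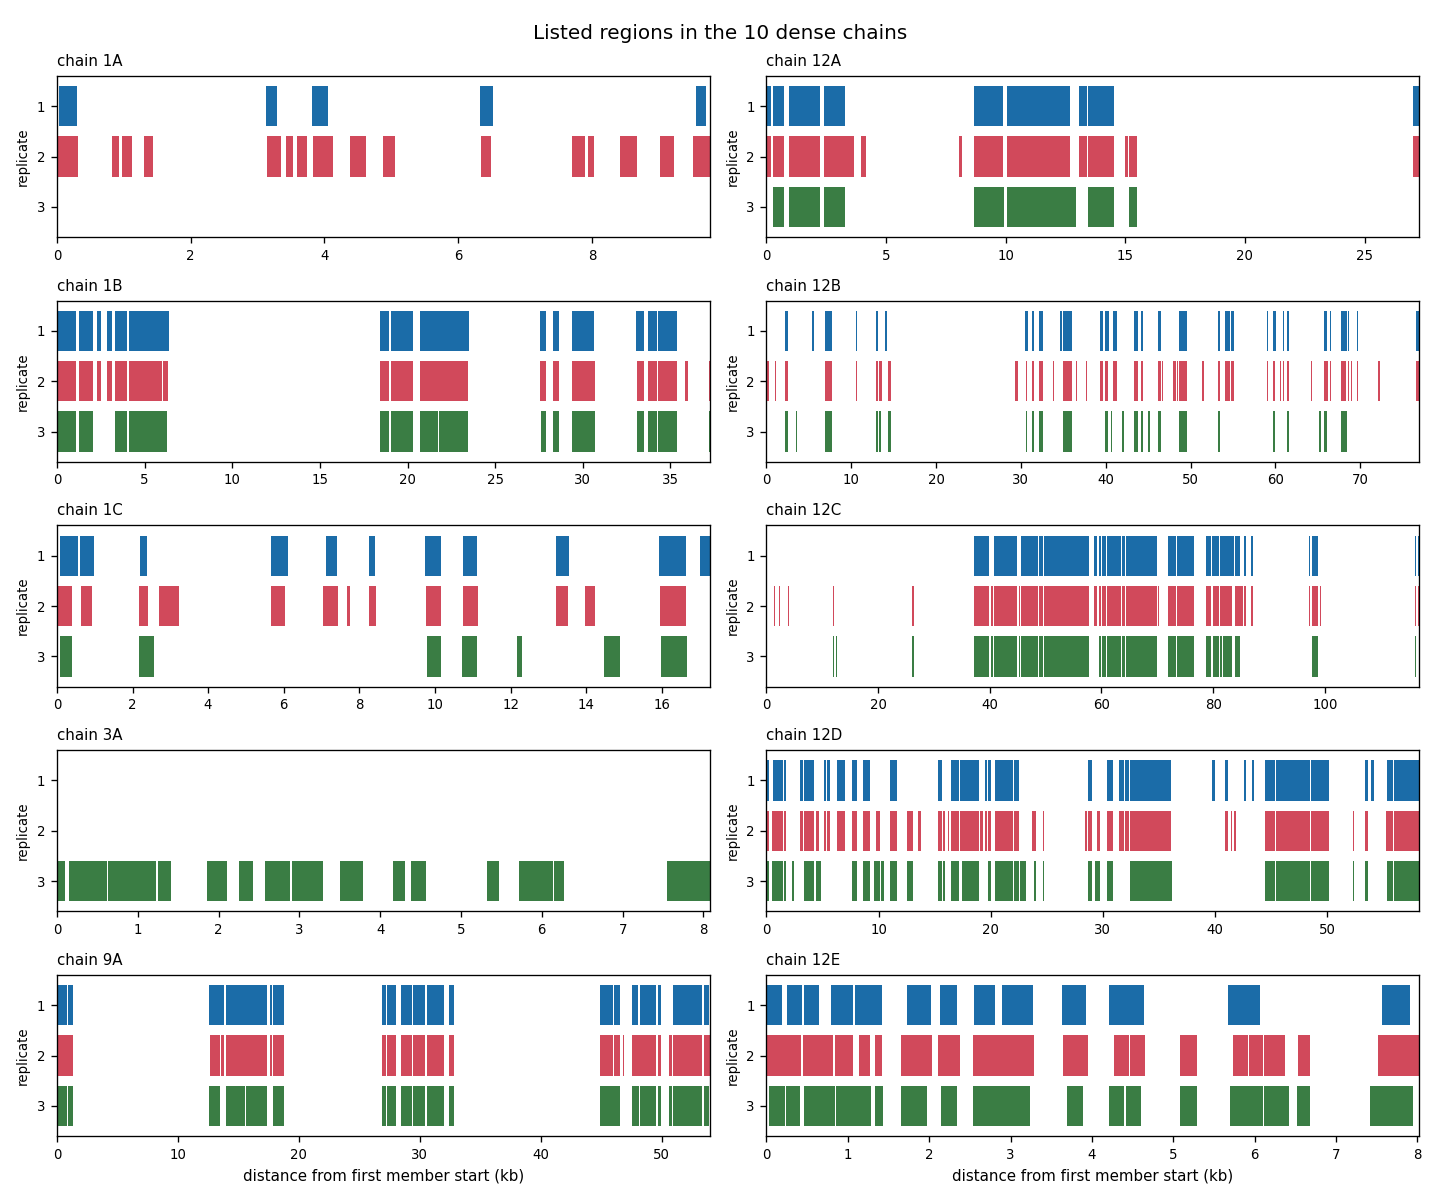
Position of every listed region in the 10 dense chains. Each panel is 1 chain, the horizontal axis is the distance in kb from the start of its first member on a scale of its own, and the 3 rows are the samples. Chain 3A has regions in replicate 3 alone, chain 1A has none in replicate 3, and the long members of 1B, 9A, 12A, 12C and 12D recur in all 3 samples, while some short outlying members do not.

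Members were mostly listed by several samples. All 3 samples listed 121 of the 262 members (46.2%), and the background over all 853 merged regions was 23.3%. By chain the share ran from 0% in 1A and 3A to 85% in 9A. At least 2 samples listed 181 members (69.1%), where the background was 45.7%. The share listed by all 3 was 22.4% among the 228 regions in chains of 2 to 9 and 7.44% among the 363 lone regions. Both the members and these shares come from the same lists, so the differences between the classes were not tested. Without replicate 3 there were 9 chains with 240 members, of which 68.8% were listed by both of the others, against 46.3% of all merged regions of those lists. Without replicate 1 these shares were 53.7% and 35.8%, and without replicate 2 they were 57.9% and 30.7%.

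Members listed by more samples were longer, which merging over samples favours by construction. The 121 members listed by all 3 samples had a median length of 728 bp (range 150 to 3725 bp) and made up 77.0% of the bases of all members. The 60 listed by 2 samples had a median of 290.5 bp, and the 81 listed by 1 sample a median of 177 bp and a maximum of 597 bp. Of the 81, replicate 1 alone listed 9, replicate 2 alone 46 and replicate 3 alone 26, of which 15 are chain 3A. Counted in bases, 73.0% of the 153 kb of members was covered in all 3 samples, 12.5% in 2 and 14.4% in 1. The share covered in all 3 was 93.0% in 1B, 91.9% in 9A, 87.7% in 12C, 76.9% in 12A and 70.5% in 12D. It was lower, at 59.9%, in 12E, 47.3% in 12B and 31.9% in 1C. Without replicate 3, the remaining samples both covered 86.1% of the 145 kb that either covered, from 97.4% in 1B to 65.2% in 1C and 30.3% in 1A.

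A list that took no part in building the chains also fell into them. With chains rebuilt from replicates 2 and 3, 185 of the 440 regions of replicate 1 (42.0%, exact 95% interval 37.4 to 46.8%) lay inside the 11 chains obtained, which spanned 0.115% of the length. With chains from replicates 1 and 3, 221 of 620 regions of replicate 2 (35.6%, 31.9 to 39.6%) lay inside 9 chains spanning 0.111%. With chains from replicates 1 and 2, 160 of 439 regions of replicate 3 (36.4%, 31.9 to 41.1%) lay inside 9 chains spanning 0.112%. The mean was 38.0 ± 3.49% (SD, n = 3). The shares behind it are not independent, because each list also helped to build the chains for the others. The left-out list reached all but 1 chain each time. The chain missed by replicates 1 and 2 was 3A, and the chain missed by replicate 3 was 1A. These intervals hold counting error alone, as if neighbouring regions were independent, which they are not.

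Members of dense chains ranged from 59 to 3725 bp with a median of 341.5 bp. The median was 231.5 bp in chains of 2 to 9 and 161 bp among lone regions. At 1000 bp or more there were 43 members (16.4%), against 8 regions in each of the other classes (3.51% and 2.20%). All 43 lay in 5 chains, 17 in 12C, 9 in 9A, 6 in 1B, 6 in 12D and 5 in 12A. Chains 1A, 1C, 3A, 12B and 12E had none, and their longest members measured 328, 728, 597, 876 and 987 bp.

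Neighbouring members were separated by narrow gaps. Over the 252 gaps the median was 295.5 bp, the middle 50% ran from 90 to 759 bp, and the extremes were 3 and 16823 bp. Gaps under 100 bp numbered 68 (27.0%), those from 100 to under 500 bp 95 (37.7%), and those from 500 to under 2000 bp 64 (25.4%). Another 17 measured 2000 to under 10000 bp and 8 measured 10000 bp or more. The midpoints of neighbours lay a median of 971 bp apart. By construction a gap is a stretch that no sample listed, but its ends can come from different lists. Its width therefore need not be that of a gap in any single list. Median gaps within replicates 1, 2 and 3 were 924, 758 and 1168.5 bp in 12B, against 560.5 bp between its merged members. In 12C they were 87, 156.5 and 94 bp, against 166 bp.

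The spacing was uneven in most chains. The coefficient of variation of the midpoint spacing (SD over mean) was 1.41 to 1.44 in 1B, 9A, 12A, 12B and 12C, where wide empty stretches alternated with packed blocks. It was 0.82 in 1A, 0.83 in 12D, 0.63 in 3A and 0.58 in 1C. Over merged members, chain 12E was the most evenly spaced of the 10, at 0.35, with midpoints 330.5 to 1120.5 bp apart. In each sample 3 members of 12E joined several listed regions, whereas in 3A, listed by 1 sample, merging joined none. The evenness of the unmerged regions was not computed. Splitting the chains at gaps over 2000 bp gave 1 block in each of 1A, 3A and 12E, 2 in 1C, 3 in 12A, 4 in each of 1B, 9A and 12D, 7 in 12C and 8 in 12B.

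Chain 12C, the longest at 117 kb, was built around a nearly continuous core. The fourth block, from 20497812 to 20537296, held 26 of the 47 members in 39.5 kb and 77.7% of the member bases. Members filled 87.2% of that block, 22 of the 26 were listed by all 3 samples, and their median length was 1138.5 bp. The fifth block, from 20539331 to 20547853, was filled to 79.4% with 9 members. The 3 blocks before the core held 7 members with a top mean score of 98.0, and none of the 7 was listed by all 3 samples. The widest gap of the chain, 16823 bp, lay near its right end, from 20559983 to 20576805. The narrowest, from 20544955 to 20544997, measured 43 bp.

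Scores in 12C were highest in the core, with high members also to its right. The score is the value the peak caller gave a region. Mean scores average it, unscaled, over the samples that list a member, and percentiles are counted within each list. Over 4 equal parts of the span, from left to right, the members had median mean scores of 56.2, 245, 170 and 73.2. The highest member, from 20525820 to 20528414 (2595 bp), scored 658 in replicate 1, 876 in replicate 2 and 595 in replicate 3. These scores stood at percentiles 94.2, 94.3 and 93.1 of their lists, so the member ranked alike in every sample. The longest, from 20534149 to 20537296 (3148 bp), closed the core with scores of 749, 812 and 473. Right of the core, the member from 20542412 to 20544462 (2051 bp), in the fifth block, scored 256, 553 and 230. The member from 20558435 to 20559515 (1081 bp) scored 316, 476 and 216. These members were named after their values were seen. In 12C the samples listed 38, 47 and 35 regions, which covered 35.5, 37.2 and 34.5% of the span.

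Chain 12D began 33006 bp after 12C and was filled more evenly. Its 53 members covered 54.2% of 58.2 kb, and its widest gap was 3601 bp, from 20635344 to 20638944. The samples listed 35, 46 and 34 regions there, covering 45.3, 49.8 and 44.8% of the span. The first block, from 20610555 to 20635343, held 31 members of up to 1752 bp with a median length of 328 bp. The blocks after it held 2 members over 3 kb. The longest member of all chains, from 20643002 to 20646726 (3725 bp), scored 658, 688 and 215 in replicates 1, 2 and 3. Its score in replicate 3 was at percentile 81.0, below percentiles 94.4 and 92.3 in the others. The highest member, from 20655979 to 20659063 (3085 bp), scored 930, 894 and 563, at percentiles 96.0, 94.6 and 92.6. A gap of 12 bp, from 20668129 to 20668140, separated the last pair of members.

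Chain 9A consisted of 4 well separated blocks. They measured 1.34, 6.18, 5.96 and 9.04 kb and were filled to 100%, 91.9%, 82.5% and 79.6%. The widest of the empty stretches, from 4711373 to 4723462, measured 12090 bp. Of its 20 members, 17 were listed by all 3 samples (85%), the highest share of the 10 chains. The samples listed 21, 23 and 20 regions, covering 34.1, 34.8 and 33.7% of the span. The member from 4729511 to 4731885 (2375 bp), in the last block, was both the longest and the highest, with scores of 482, 800 and 488. Its percentiles were 92.6, 93.3 and 91.0. The narrowest gap, 30 bp from 4694178 to 4694207, lay in the second block.

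Chain 1B also had 4 blocks, of 6.37, 5.07, 3.16 and 4.17 kb. The first pair were filled to 82.9% and 91.1%, the later ones to 63.3% and 53.8%, and the empty stretch from 33522576 to 33534627 measured 12052 bp. Of 17 members, 13 were listed by all 3 samples. The samples listed 15, 18 and 15 regions, covering 37.2, 37.5 and 35.7% of the span. The highest member, from 33520331 to 33522575 (2245 bp), ended the first block, with scores of 286, 651 and 455. The longest, from 33536924 to 33539700 (2777 bp), ended the second block, with scores of 263, 829 and 254. In both blocks the member at the right end was thus the longest. The narrowest gap of 1B, from 33550426 to 33550485, measured 60 bp.

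Chain 12A held 13 members in 3 blocks, of which the last was a lone region of 256 bp after a gap of 11537 bp, from 8545498 to 8557034. The first pair of blocks were filled to 82.5% and 82.3%. The longest and highest member, from 8540061 to 8542966 (2906 bp), scored 256, 664 and 408 in replicates 1, 2 and 3, at percentiles 82.2, 91.9 and 89.2. It took 21.6% of the summed mean scores of the chain. Replicate 2 listed 13 regions there, and replicates 1 and 3 listed 9 and 7. The extra regions were short, so that the share covered differed less, at 30.5, 34.8 and 30.0%. The narrowest gap, from 8545108 to 8545163, measured 56 bp.

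Chain 12B had as many members as 12D, 53, but they were short and scattered. They covered 20.3% of 77.0 kb, the lowest share of the 10 chains, with a median length of 251 bp and a median gap of 560.5 bp. The samples listed 32, 46 and 25 regions, covering 14.9, 17.8 and 11.6% of the span. Of the 53 members, 18 were listed by all 3 samples, 13 by 2 and 22 by 1. The largest of its 8 blocks, from 13371585 to 13397441, held 27 members and was filled to 34.3%. The wide gap before it, from 13356952 to 13371584, measured 14633 bp, and the narrowest gap, from 13377974 to 13378025, measured 52 bp. The highest and longest member, from 13390965 to 13391840 (876 bp), scored 227, 233 and 63.2, at percentiles 80.8, 77.5 and 33.8. By percentile within each list the highest was another member, from 13349179 to 13350048 (870 bp), with scores of 129, 260 and 131. In the other 9 chains the ranking by score and by percentile gave the same highest member, and in 4 of the 10 chains the highest by score was also the longest.

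Chain 1C held 16 members of up to 728 bp in 17.3 kb and had low scores. The highest and longest member, from 39127439 to 39128166, scored 177, 260 and 69.0, at percentiles 75.3, 80.7 and 42.0. The samples listed 11, 13 and 7 regions, covering 22.9, 26.2 and 15.9% of the span, and 5 members were listed by all 3. Its gaps ran from 75 bp, between 39112049 and 39112123, to 2446 bp, between 39114722 and 39117167.

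**Figure D2:**
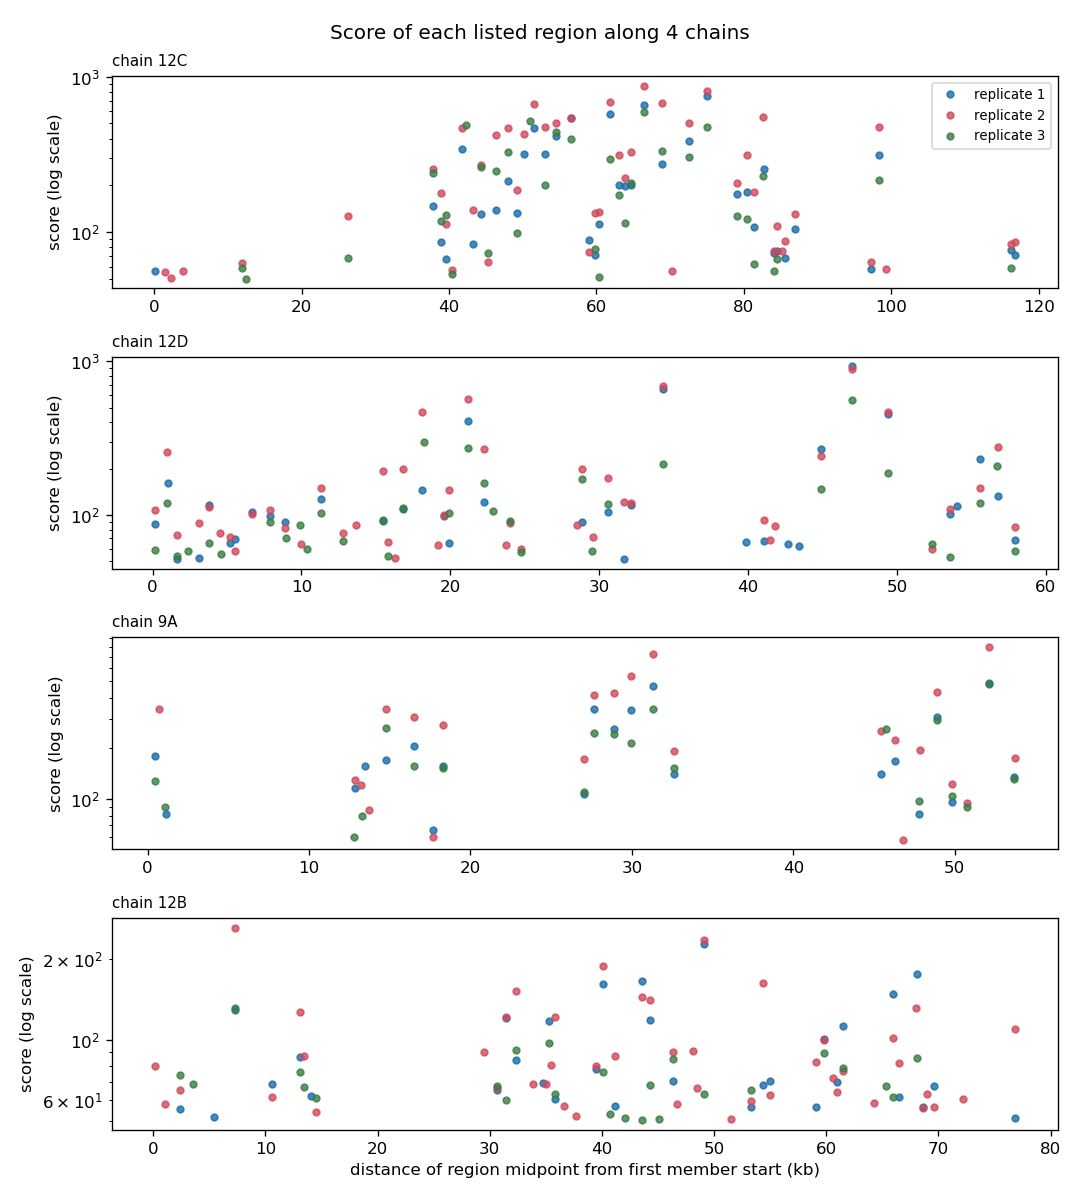
Score of each listed region, on a log axis, against the distance in kb of its midpoint from the start of the first member, for chains 12C, 12D, 9A and 12B. Points are coloured by sample. In 12C the points are highest in the core, up to 876 in replicate 2. To its right a region of the fifth block reaches 553 and a region near 98 kb reaches 476, both in replicate 2. Points of 12B lie at or below 260.

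The samples ranked the members of a chain alike in most of the chains that could be compared. Across the members listed by both samples of a pair, the Spearman correlation of the scores was 0.94, 0.83 and 0.89 in 12C for replicates 1 and 2, 1 and 3, and 2 and 3 (35, 30 and 34 members). It was 0.93, 0.82 and 0.86 in 9A (18, 17 and 18 members) and 0.80, 0.78 and 0.89 in 12D (31, 23 and 31 members). In 1B it was 0.87, 0.70 and 0.88 (15, 13 and 14 members), and in 12A 0.92, 0.49 and 0.89 (9, 6 and 7 members). In 12E it was 0.75, 0.73 and 0.98 (9, 9 and 12 members), and in 1C 0.83 for replicates 1 and 2 (10 members). Pairs of samples sharing fewer than 6 members were not computed, which left out 1A, 3A and the other pairs of 1C. Chain 12B differed in value, with 0.60 for replicates 1 and 2 over 29 members, but -0.12 and 0.15 for the pairs with replicate 3 over 18 and 20 members. In replicate 3 the scores of 12B ran from 50.35 to 131 with a median of 67.7, where the lowest of that list was 50.02. Whether this narrow range lowered the values was not tested. All these correlations are descriptions across members of 1 chain, which share a locus and a list and whose scores also follow length.

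Longer members had higher scores, and most members of 12E and 3A from 200 to under 1000 bp scored above others of like length, for 12E in replicates 2 and 3. The Spearman correlation of length and mean score was 0.71 across the 262 members, and within chains it ran from 0.32 in 1A to 0.98 in 1B. Among members from 200 to under 500 bp, the median mean score was 612 for the 8 of chain 12E and 580 for the 6 of chain 3A. It was 84.0 for the 95 members of that length in the other 8 chains, whose highest was 243. Among members from 500 to under 1000 bp, the 3 of 12E had scores of 1014 to 2168 and the 2 of 3A scores of 836 and 1033. The 37 of the other chains stayed between 69.7 and 336. Under 200 bp, the single member of 12E scored 65.5, within the 50.3 to 141 of the other 8 chains. In replicate 1 the 3 members of 12E from 500 to under 1000 bp scored 148, 169 and 303, within the 68.2 to 344 of the other chains. In replicate 2 they scored 1463 to 3100, against 64.4 to 428, and in replicate 3 they scored 1431 to 3100, against 50.4 to 247. The values of 3A rest on replicate 3 alone. Within the lists, regions in dense chains gave length and score correlations of 0.77, 0.71 and 0.41 in replicates 1, 2 and 3. All listed regions gave 0.70, 0.57 and 0.51. Score and length both come from the peak caller, so the relation is a description of its output.

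**Figure D3:**
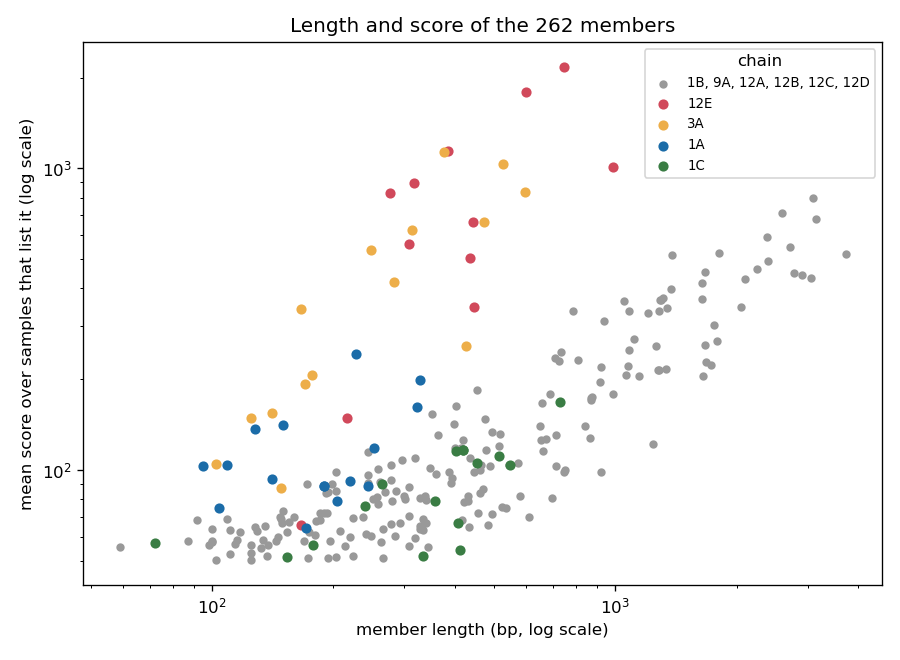
Mean score over the samples that list it against length in bp for each of the 262 members, both on log axes, coloured by chain. Most points of 12E and 3A lie above the grey band formed by 1B, 9A, 12A, 12B, 12C and 12D. Grey points over 1000 bp reach at most 796.

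Chain 12E was short and held the highest scores of all members in replicates 2 and 3, but not in replicate 1. Its 12 members in 8.02 kb included the single member that reached 3100, the top score of the lists. Several regions tied at that score, 3 in replicate 1, 10 in replicate 2 and 3 in replicate 3. Apart from the regions of this member, they lay outside the dense chains. That member, from 26310044 to 26310788 (745 bp), scored 303 in replicate 1 and 3100 in replicates 2 and 3, at percentiles 85.6, 99.2 and 99.7. The longest member, from 26307950 to 26308936 (987 bp), scored 148, 1463 and 1431. These scores of the longest member stood at percentiles 71.5, 96.2 and 98.1 of their lists. Replicates 2 and 3 were thus above replicate 1 in rank within the list at both members. Scores are not scaled between lists, so the size of the difference in score was not read. In replicate 1 the top score of 12E, 303, was below those of other chains. These were 930 in 12D, 749 in 12C, 482 in 9A, 378 in 1B and 366 in 12A. Over chain 12E the median percentile was 69.0 in replicate 1, 93.1 in replicate 2 and 94.4 in replicate 3. The samples listed 13, 17 and 17 regions, more than the 12 members, because in each sample 3 members were split into several regions. They covered 47.1, 59.8 and 58.4% of the span. The gaps ran from 3 bp, between 26307947 and 26307949, to 738 bp, between 26314189 and 26314926.

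Chain 3A was listed by replicate 3 alone. Its 15 regions, of 102 to 597 bp, covered 52.9% of 8.07 kb, with gaps of 8 bp, between 25043661 and 25043668, to 1271 bp, between 25049315 and 25050585. The highest, from 25045949 to 25046324 (376 bp), scored 1133, at percentile 97.2 of the list. The longest, from 25043669 to 25044265 (597 bp), scored 836. The median percentile of the 15 was 88.0, and the lowest of their scores was 87.2, against 50.02 for the whole list. The reads and the control were not analysed here, so absence from the lists of replicates 1 and 2 cannot be read as absence of signal.

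Chains 12E and 3A had similar layouts. They spanned 8022 and 8075 bp. In replicate 3 the last region of 12E started 7423 bp into the chain, measured 528 bp and scored 2877, and the last of 3A started at 7549 bp, measured 526 bp and scored 1033. A stretch with no region came before each of these. Further left, 12E had a 404 bp region 5697 bp from the chain start and 3A a 426 bp region at 5717 bp. The highest region of each lay before its middle, starting 2541 bp into 12E with a score of 3100 and 2912 bp into 3A. Scored in 25 bp bins as covered or not in replicate 3, the Pearson correlation of the chains aligned at their starts was 0.48 over 321 bins, and -0.03 with 3A turned around.

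That likeness was set beside the other pairs of chains. For each of the 45 pairs in both orientations, the shorter chain was slid along the longer and the best correlation of the mean coverage of the samples was kept. The median of the 90 best values was 0.38. The pair of 12E and 3A reached 0.60 over only 4 placements, at an offset of 25 bp. The highest value, 0.62, came from 12A slid along 9A over 1067 placements, and 5 of the 6 highest values involved 12A. More placements give more chances of a high value, neighbouring bins are not independent, and the pair was singled out after its layout had been seen. The values are therefore a description.

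**Figure D4:**
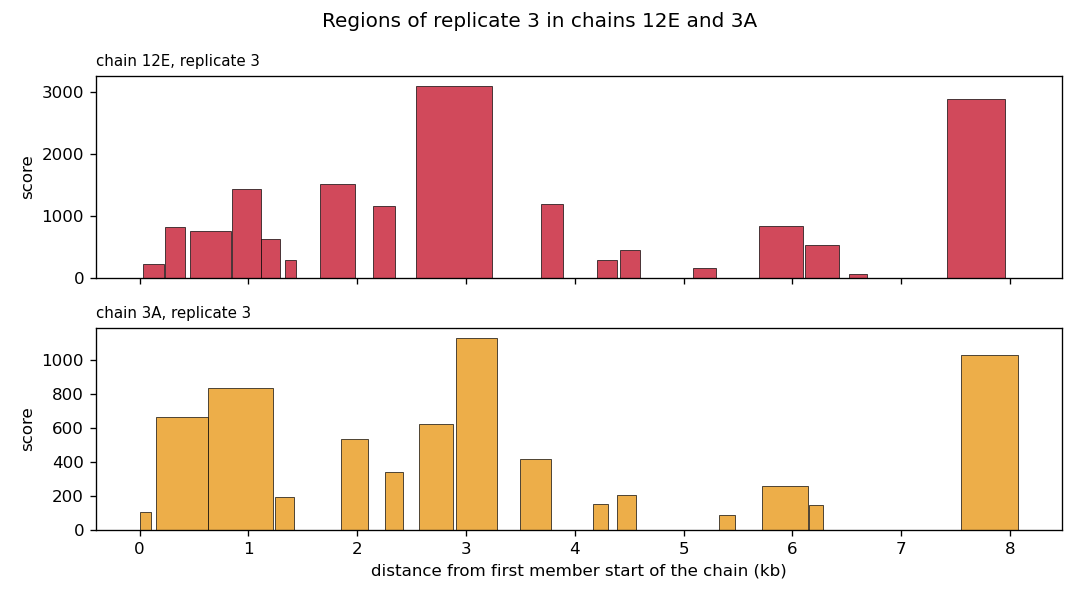
Regions of replicate 3 in chain 12E (top) and chain 3A (bottom), drawn as bars whose width is the region and whose height is its score, against the distance in kb from the start of the first member of the chain. The score axes differ. Both chains have a tall bar about 3 kb in and another after 7.4 kb, with scores of 3100 and 2877 in 12E and 1133 and 1033 in 3A.

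Chain 1A was listed by replicates 1 and 2 and had no region in replicate 3. Its 16 members measured 95 to 328 bp in 9.76 kb. All 16 were in replicate 2, whose regions covered 30.7% of the span. Of these, 5 were also in replicate 1, whose regions covered 10.3%. The member with the highest mean score, from 24539895 to 24540121 (227 bp), was listed by replicate 2 alone, with a score of 243. The longest, from 24539314 to 24539641 (328 bp), scored 89.1 in replicate 1 and 309 in replicate 2. Within replicate 2 its region, 303 bp long, scored highest, and a longer region of 323 bp, from 24535507 to 24535829, scored 236. The gaps of 1A ran from 51 bp, between 24543397 and 24543447, to 1693 bp, between 24536940 and 24538632.

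The chains also differed in how exactly the region boundaries coincided between samples. In 1B, 9A, 12A, 12B, 12C and 12D, starts and ends of overlapping regions lay within 1 bp of each other for 533 of 784 boundaries (68.0%). In 1A, 1C and 12E this held for 14 of 156 boundaries (8.97%). Without replicate 3 the counts were 208 of 292 (71.2%) and 5 of 64 (7.81%). This split into 6 and 3 chains was made after the values had been seen. By chain and pair of samples the share ran from 50% in 1B to 83.3% in 12A in the first set. It was 2.94, 8.82 and 7.89% in 12E, 20, 10 and 20% in 1C, and 0 of 10 boundaries in 1A. The median distance between boundaries was 1 bp in each of the 6 chains, 43.5 bp in 12E, 25 bp in 1C and 29.5 bp in 1A. It was 12 bp in chains of 2 to 9 and 29 bp among lone regions.

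Boundary distances over 10 bp were the minority in the 6 chains and the majority in 1A, 1C and 12E. Of their 784 boundaries, 127 lay 2 to 10 bp apart, 71 lay 11 to 100 bp apart and 53 (6.76%) over 100 bp apart. In 12E, 54 of 106 lay 11 to 100 bp apart and 32 (30.2%) over 100 bp apart. In 1A all 10 lay 11 to 100 bp apart, and in 1C 22 of 40 did, with 4 over 100 bp apart. Split regions were paired more than once, which can add long distances. In 12E, replicates 1 and 2 gave 17 pairs of regions over 9 shared members. Chain 12B, whose scores did not keep 1 order between replicate 3 and the others, had 94 of 138 boundaries (68.1%) within 1 bp. Each boundary pair was counted once for each pair of samples, so the counts are not independent.

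**Figure D5:**
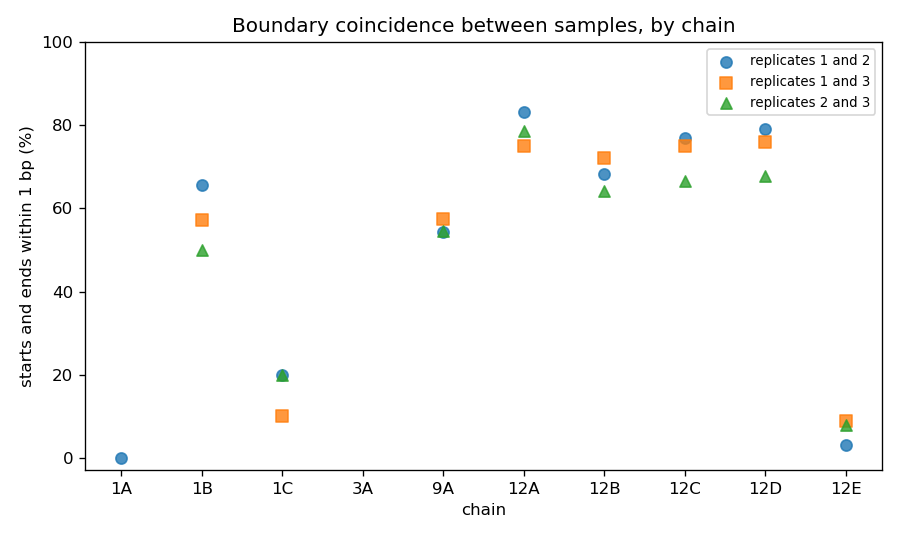
Share of starts and ends within 1 bp of each other, in percent, for overlapping regions of each pair of samples, by chain. Marker shapes are the pairs of samples, and chain 3A has no pair. Chains 1B, 9A, 12A, 12B, 12C and 12D lie at or above 50%, and 1A, 1C and 12E at or below 20%.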

How the data were processed

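ChIP-seq regions of 3 samples were analysed. The authors deposited 1 list per sample without a header, and the peak names in it name MACS. No source used here gives its version, settings, control, aligner, read depth or genome build. The deposited score has no named unit. It ran from just above 50 to 3100. Regions were ranked within a list by mid-rank percentiles. The mean score of a member averages its deposited scores over the samples that list it, without scaling between lists. A score threshold, a control common to the samples or the handling of repeated sequence would each shape which regions are listed. Per the labels' protocols, chromatin was sonicated to about 500 bp and fragments of 100 to 500 bp were selected.

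Members and lists were chosen with earlier results of these data known. Where several regions of a sample fell in a member, its highest score was used. Blocks were split at gaps over 2000 bp. The rule for named regions took, in each chain, the highest mean score, the longest member, the widest and narrowest gaps, and members at 3100. Intervals are exact Clopper-Pearson 95% intervals. The length of the genome was taken as the summed largest region ends. The chaining code was tested on simulated data. The gene and sequence comparison that was planned was not run, because the build of the lists is not known. Alternatives were other gap and size limits, merging within 100 bp, regions above each list's median score, and leaving out each replicate. The tools were SciPy 1.17.1, pandas 2.3.3 and NumPy 2.4.6 under Python 3.11.15, with Matplotlib 3.10.9 for figures.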

Additional observations from a re-analysis of the deposited data

How the results depend on the processing

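Of 93 alternative values, 61 stayed within the spread between samples, the binomial interval or, for counts, 1.5 times the reported count, and 32 moved. The share of a sample's regions in dense chains, 39.7%, became 35.6% with gaps up to 10000 bp, 42.2% with 50000 bp, 51.9% with at least 5 members, 26.9% with at least 20, 35.4% when merging within 100 bp, 47.4% above the median score and 37.3% in the chains listed by all 3 samples. The span of 414 kb became 280.3, 579, 581 and 306 kb under the first 4 settings and 316 kb above the median score. The mean covered share of a chain, 30.8%, became 36.9, 24.7 and 26.6% under the first 3 settings and 34.6% in the chains listed by all 3 samples. The 10 chains became 23 with at least 5 members and 4 with at least 20, and the 262 members became 173 with at least 20 and 150 above the median score. Merging within 100 bp moved the median gap to 512.5 bp and the spacing to 1287 bp. Above the median score the length was 504.5 bp and the spacing 1336 bp. The left-out share of 38.0% became 48.9% with at least 5 members and 32.5% with gaps up to 10000 bp. Boundary coincidence, a mean of 58.2% over the pairs of samples, became 70.9% at 5 bp. Leaving out 1 replicate gave 9 to 11 chains, 214 to 268 members, 53.7 to 68.8% listed by all remaining samples (which are fewer), lengths of 334 to 419.5 bp and covered shares of 32.3 to 33.7%. The setting of chains listed by all 3 samples and the percentile ranking were added after seeing the data. No paired analysis was possible because 1 group alone was sampled. The gene alternatives were not run. Depth is unknown, which limits any reading of a missing region.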

Other observations

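Across the 252 neighbouring pairs in the 10 chains, the Spearman correlation of their mean scores was 0.36. It was 0.45 for the 68 pairs less than 100 bp apart, 0.29 for the 95 pairs from 100 to under 500 bp apart and 0.12 for the 89 pairs farther apart. Within single chains it was 0.34 in 12C over 46 pairs, -0.25 in 12B over 52 pairs and between -0.04 and 0.18 in the other 8, so the pooled value exceeded that of every chain. The pooled values by gap were not computed within chains, and the pairs overlap in members, so these values are descriptions with no test.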
